A study of Mus musculus with 16 samples.

Results

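The endothelin system of the mouse colon was described through its 7 genes, which were taken by gene symbol from the 56748 genes of the count table. They encode the receptors endothelin receptor type B (Ednrb) and type A (Ednra), the ligands endothelin 1, 2 and 3 (Edn1, Edn2 and Edn3), and the endothelin converting enzymes Ece1 and Ece2. Polyadenylated RNA was sequenced in bulk from the longitudinal muscle and myenteric plexus (LMMP), the outer muscle layer of the gut with the nerve network on it. The 16 libraries fell into 4 groups of 4, which were the proximal and the distal colon of Ednrb-/- mice (HSCR, a model of Hirschsprung disease) and of wildtype Ednrb+/+ littermates (WT). HSCR mice were homozygous for the Ednrb tm1Ywa allele in every cell of the body, WT mice carried no disrupted copy, both shared a hybrid C57BL6/J-129Sv background, and no group received a treatment. Mice of both sexes were used at a few weeks of age.

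Endothelins are short peptides cut from longer precursors, with a last cut made by the converting enzymes. The type A receptor prefers endothelin 1 and 2 and contracts smooth muscle, and the type B receptor binds all of the ligands. In the embryonic gut, endothelin 3 from the mesenchyme acts on the type B receptor of migrating neural crest cells, the cells that form enteric neurons and glia, and mice without either partner lack neurons in the distal bowel. In the grown gut wall the type B receptor is known from enteric glia and endothelium.

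The 3 ligands are near copies over the active peptide, and the bases that code for it are set side by side. They are a small part of the 2139, 1462 and 4113 bases of Edn1, Edn2 and Edn3. Reads were counted over the whole gene, and how well they tell the 3 genes apart was not tested. Each stretch below holds the 63 bases for the 21 residues of the mature peptide, read from the GRCm39 genome with the GENCODE M39 transcripts. Capitals mark bases that differ from Edn1. All 3 lie on the plus strand and each within a single coding exon, at chr13:42457125-42457187 for Edn1, chr4:120019148-120019210 for Edn2 and chr2:174603542-174603604 for Edn3.
Edn1: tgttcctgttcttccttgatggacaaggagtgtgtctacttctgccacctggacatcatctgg
Edn2: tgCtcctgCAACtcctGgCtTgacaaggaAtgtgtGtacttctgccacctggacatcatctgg
Edn3: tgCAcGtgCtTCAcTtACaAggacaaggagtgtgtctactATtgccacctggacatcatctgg
Edn2 differed from Edn1 at 10 bases, in 7 codons, of which 3 changed the residue. Edn3 differed at 13 bases, in 8 codons, of which 6 changed the residue. The differences sat in the first part of the peptide, and the last 7 codons were identical in all 3 genes.

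The files placed the genes on mm39 as follows. Ednrb lay at chr14:104052061-104081838 and Ednra at chr8:78389660-78451093, both on the minus strand. The ligand genes lay at chr13:42454952-42461466 for Edn1, chr4:120018403-120024557 for Edn2 and chr2:174602412-174625835 for Edn3, and the enzyme genes at chr4:137589548-137692540 for Ece1 and chr16:20448578-20465235 for Ece2. The 5 last named were on the plus strand. Of the 6630 exon bases that GENCODE M39 gives Ece2, 44.3% are shared with a readthrough gene that had 0 counts in every library, so the Ece2 counts are uncertain.

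Counted reads per library ranged from 21384372 to 45831881, and mitochondrial genes took 4.32% to 49.8% of them, with WT proximal libraries 1 and 4 highest at 49.8% and 34.6% against 5.56% to 20.1% in HSCR proximal libraries. Several libraries stood apart before any endothelin gene was considered. Over 8 genes of segment position, all posterior Hox genes, WT proximal libraries summed to 83.2 to 113 CPM (counts scaled to library size) and WT distal libraries to 214 to 313 CPM. HSCR proximal library 1 summed to 250.0 CPM, inside the WT distal range, while HSCR distal libraries 1 and 4 summed to 195 and 169 CPM, below it. HSCR proximal libraries 3 and 4 summed to 148 and 182 CPM, between the WT ranges. The mean log2 CPM of the 8 genes was 1.34 to 2.93 in WT proximal and 2.97 to 4.18 in WT distal libraries. By that measure HSCR proximal libraries 3 and 4 (1.96 and 2.79) lay in the WT proximal range. So did HSCR distal libraries 1 and 4 (2.26 and 2.68), while HSCR proximal library 1 (3.79) lay in the WT distal range. The labels were kept, and results of the HSCR groups that moved most without their libraries numbered 1 are also given without them. HSCR proximal library 2 held 16272 CPM of 12 epithelial markers, against 48.9 to 6132 CPM in the other 15 libraries, and 4483 CPM of 9 smooth muscle markers, against 24689 CPM or more elsewhere. All 12 epithelial markers were higher on average in HSCR than in WT mice in both segments (median log2 difference 2.73 proximal and 1.09 distal, none past an adjusted p of 0.05), and their part in the differences between genotypes was not tested. The 12 enteric neuron markers summed to 536 to 3615 CPM in WT proximal libraries, 71.7 to 2854 CPM in HSCR proximal, 80.1 to 2400 CPM in WT distal and 11 to 1178 CPM in HSCR distal libraries.

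Levels are first compared between the genes, as FPKM, a fragment count corrected for gene length and depth, since a long gene collects more reads than a short one. Ece1, the enzyme that makes most of the mature endothelin, was the most abundant with a median of 22.7 FPKM over 16 libraries (range 7.13 to 48.9). Ednrb followed at 7.22 FPKM (1.31 to 22.1) and Edn3 at 6.54 FPKM (0.783 to 19.4). Ednra stood at 3.44 FPKM (0.683 to 10.3) and Edn1 at 3.26 FPKM (1.10 to 14.3). Edn2 had a median of 0.254 FPKM and no count in 3 libraries, and Ece2 had 0.0158 FPKM and no count in 7 libraries.

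The outer steps of this order held within libraries and the inner ones did not. Ece1 was above Ednrb in 15 of 16 libraries, and Edn1 was above Edn2 in 15 of 16. Ednrb was above Edn3 in 8 of 16, Edn3 above Ednra in 9 of 16 and Ednra above Edn1 in 8 of 16, so neighbours among these 4 genes were not ordered within libraries.

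**Figure D1:**
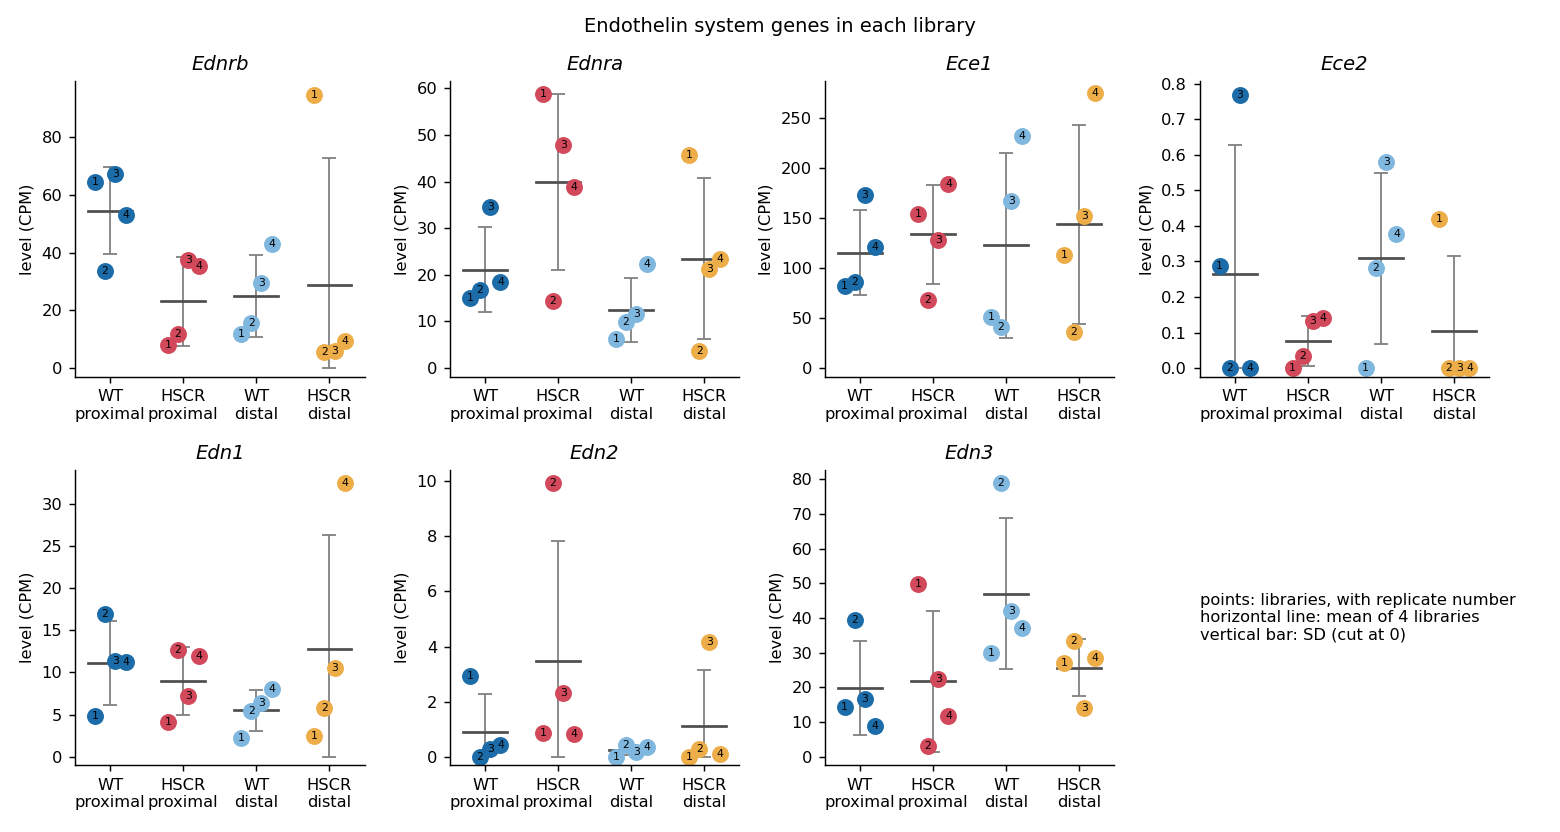
Level of each gene in CPM (vertical axis, linear from 0) in the 4 groups, with 1 point per library carrying its replicate number, a line at the mean of 4 and a bar of 1 SD. HSCR distal library 1 stands alone for Ednrb at 94.7 CPM, and Edn2 and Ece2 stay near 0 in most libraries.

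Between groups, levels are given as CPM scaled by trimmed mean of M-values (TMM) over the 16 libraries. The type B receptor, the gene disrupted in HSCR mice, was read first. Ednrb stood at 64.5, 33.8, 67.1 and 53.0 CPM in WT proximal libraries 1 to 4, a mean of 54.6 ± 15.2 (SD, n = 4). In HSCR proximal libraries it stood at 7.84, 11.9, 37.4 and 35.3 CPM, a mean of 23.1 ± 15.4 (SD, n = 4). The lowest WT library lay below the highest HSCR libraries, so the groups overlapped. Enteric neuron markers summed to 71.7, 120, 2854 and 1916 CPM in HSCR proximal libraries 1 to 4, so the 2 with low Ednrb were those poor in neuron markers. In WT proximal libraries 1 to 4 they summed to 536, 1323, 3615 and 3182 CPM. The part of neuron content in the Ednrb difference was not tested.

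Ednrb was detected in every HSCR library. The counts cover the whole gene and cannot tell reads of the disrupted stretch from others, so they do not check the genotype labels. The proximal difference was -1.26 on the log2 scale (SE 0.52, 95% interval -2.43 to -0.09), with an unadjusted p of 0.0371 and an adjusted p of 0.747 (edgeR quasi-likelihood test, Benjamini-Hochberg over 16664 genes). The two-sided exact permutation test over the libraries gave p = 0.0857, where 0.0286 is the smallest possible with 4 against 4. An unadjusted p under 0.05 was given to 6.62% of all genes tested and, among the 6 endothelin genes tested, to Ednrb. A likelihood ratio test with 4 factors of unwanted variation (RUVr, the method the study names) changes both the correction and the test. It put Ednrb past the threshold, at -1.52 with an adjusted p of 1.6e-08, in a fit that called 3496 genes. Its factors were drawn from the residuals of the same libraries, which leaves few degrees of freedom for the spread within groups. Its p-values are therefore not comparable with those of the main fit.

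In the distal colon Ednrb stood at 11.8, 15.7, 29.5 and 43.0 CPM in WT libraries, a mean of 25.0 ± 14.2 (SD, n = 4). HSCR distal libraries stood at 94.7, 5.43, 6.10 and 9.48 CPM, with a mean of 28.9 and an SD of 43.9 that rest on the first. That library held the highest Ednrb level of all 16, and the other 3 lay below every WT distal library. The difference was 0.27 (SE 0.95, adjusted p = 1.00, edgeR quasi-likelihood test) and turned to -1.83 without HSCR distal library 1 (unadjusted p = 0.00746, adjusted p = 0.813). Its enteric neuron markers summed to 1178 CPM, against 11 to 73.3 CPM in the other 3 HSCR distal libraries.

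Within WT mice the distal colon held less Ednrb than the proximal colon on average, by -1.15 on the log2 scale (SE 0.40, unadjusted p = 0.0182, adjusted p = 0.906, edgeR quasi-likelihood test). The ranges overlapped between 33.8 and 43.0 CPM, and the exact permutation test gave p = 0.0571. In this comparison 5.23% of genes had an unadjusted p under 0.05. Within HSCR mice the segment difference was 0.34 (SE 1.01, adjusted p = 1.00), and -2.05 without both HSCR libraries numbered 1. The difference of the genotype effect between segments was 1.53 (SE 1.15, adjusted p = 1.00), and -0.89 without those libraries.

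Ednra, the type A receptor of smooth muscle, stood at 15.0, 16.7, 34.5 and 18.4 CPM in WT proximal libraries and at 58.7, 14.4, 47.8 and 38.9 CPM in HSCR proximal libraries. Of the HSCR libraries, 3 lay above every WT library, and HSCR proximal library 2, the one rich in epithelial markers, lay below all of them. The means were 21.1 ± 9.04 and 39.9 ± 18.9 CPM (SD, n = 4 each). The log2 difference was 0.90 (SE 0.44, unadjusted p = 0.0712, adjusted p = 0.752, edgeR quasi-likelihood test). Without that library it was 1.18 (unadjusted p = 0.00613, adjusted p = 0.506), and without HSCR proximal library 1 it was 0.67 (unadjusted p = 0.179, adjusted p = 0.853).

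In the distal colon Ednra stood at 6.25, 9.85, 11.6 and 22.3 CPM in WT libraries and at 45.8, 3.61, 21.3 and 23.3 CPM in HSCR libraries. HSCR distal library 1 was the highest and library 2 the lowest of these 8. The difference was 0.93 (SE 0.67, adjusted p = 1.00, edgeR quasi-likelihood test) and 0.34 without library 1. The distal to proximal difference was -0.77 in WT (adjusted p = 0.906) and -0.78 in HSCR mice (adjusted p = 1.00), the latter -1.13 without both libraries numbered 1.

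Among the ligands, Edn3, the partner of the type B receptor in the embryonic gut, stood at 14.4, 39.5, 16.7 and 8.81 CPM in WT proximal and at 30.0, 78.9, 41.9 and 37.2 CPM in WT distal libraries. WT distal libraries 2 to 4 lay at 37.2 CPM or above, a level that library 2 alone reached among the WT proximal ones. The means were 19.9 ± 13.5 and 47.0 ± 21.8 CPM (SD, n = 4 each), a log2 difference of 1.26 (SE 0.50, 95% interval 0.15 to 2.38, unadjusted p = 0.0306, adjusted p = 0.906, edgeR quasi-likelihood test). The exact permutation test gave p = 0.0857.

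HSCR proximal libraries had Edn3 at 49.9, 3.04, 22.5 and 11.8 CPM, and HSCR distal libraries at 27.1, 33.3, 14.0 and 28.5 CPM. The proximal libraries spanned the WT proximal range on both sides, with library 2 at the bottom and library 1 at the top. The HSCR to WT difference was 0.11 (SE 0.76, adjusted p = 0.987, edgeR quasi-likelihood test) in the proximal colon and -0.70 without library 1. In the distal colon 3 of 4 HSCR libraries lay below every WT library, and the difference was -0.85 (SE 0.41, unadjusted p = 0.0655, adjusted p = 1.00). The exact permutation test gave p = 0.0571 there, and 2.64% of genes in this comparison had an unadjusted p under 0.05. The segment difference within HSCR mice was 0.24 (SE 0.71, adjusted p = 1.00), and 1.01 without both libraries numbered 1.

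Edn1, the main endothelin of blood vessels, stood at 4.88, 16.9, 11.3 and 11.3 CPM in WT proximal, 4.10, 12.7, 7.17 and 12 CPM in HSCR proximal and 2.25, 5.42, 6.43 and 8.03 CPM in WT distal libraries. HSCR distal libraries stood at 2.49, 5.76, 10.5 and 32.4 CPM, and library 4 held the highest Edn1 level of all 16. The distal HSCR to WT difference was 1.21 (SE 0.75, adjusted p = 1.00, edgeR quasi-likelihood test) and 0.15 without library 4. In the proximal colon it was -0.31 (SE 0.50, adjusted p = 0.909). The WT distal to proximal difference was -1.01 (SE 0.49, unadjusted p = 0.0695, adjusted p = 0.906) and the HSCR one 0.47 (SE 0.75, adjusted p = 1.00).

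Edn2, known from the intestinal epithelium, was at or under 0.43 CPM in 10 of 16 libraries. The 6 others were WT proximal library 1 at 2.94 CPM, HSCR proximal libraries 1 to 4 at 0.87, 9.92, 2.31 and 0.81 CPM and HSCR distal library 3 at 4.15 CPM. Epithelial markers summed to 16272, 6132, 3651 and 3448 CPM in the 4 libraries with the highest Edn2, which are also the 4 highest sums. The proximal HSCR to WT difference was 1.92 (SE 1.43, adjusted p = 0.806, edgeR quasi-likelihood test) and 0.50 without HSCR proximal library 2. The distal difference was 2.14 (SE 1.71, adjusted p = 1.00) and -0.86 without HSCR distal library 3. The distal to proximal difference was -1.94 in WT mice (SE 1.61, adjusted p = 0.920), and -0.0081 without WT proximal library 1. In HSCR mice it was -1.72 (SE 1.56, adjusted p = 1.00), -0.34 without HSCR proximal library 2 and -4.73 without HSCR distal library 3.

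The converting enzyme Ece1 stood at 81.9, 85.6, 173 and 121 CPM in WT proximal, 154, 67.6, 129 and 184 CPM in HSCR proximal, 50.9, 40.9, 167 and 232 CPM in WT distal and 113, 36.5, 152 and 275 CPM in HSCR distal libraries. The groups overlapped over most of their ranges. The HSCR to WT difference was 0.20 (SE 0.37, 95% interval -0.63 to 1.03, adjusted p = 0.921, edgeR quasi-likelihood test) in the proximal and 0.25 (SE 0.68, adjusted p = 1.00) in the distal colon. The distal to proximal difference was 0.06 in WT (SE 0.52, adjusted p = 0.992) and 0.07 in HSCR mice (SE 0.56, adjusted p = 1.00). The proximal interval leaves true differences from -0.63 to 1.03 possible.

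Ece2, known from the nervous system, had 115 counts over all libraries and 0 in 7 of them. Its levels were 0.287, 0, 0.769 and 0 CPM in WT proximal, 0, 0.0346, 0.132 and 0.141 CPM in HSCR proximal, 0, 0.281, 0.579 and 0.376 CPM in WT distal, and 0.419, 0, 0 and 0 CPM in HSCR distal libraries. The only HSCR distal library with Ece2 counts was library 1, in which enteric neuron markers summed to 1178 CPM, against 11 to 73.3 CPM in the other 3. WT libraries did not follow this throughout. WT proximal library 3 had 31 counts at 3615 CPM of neuron markers, but WT proximal libraries 2 and 4 had 0 at 1323 and 3182 CPM. WT distal library 2 had 10 counts at 294 CPM. Ece2 passed the low-count filter in 1 of the 4 pairwise comparisons, and no fold is given for it.

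**Figure D2:**
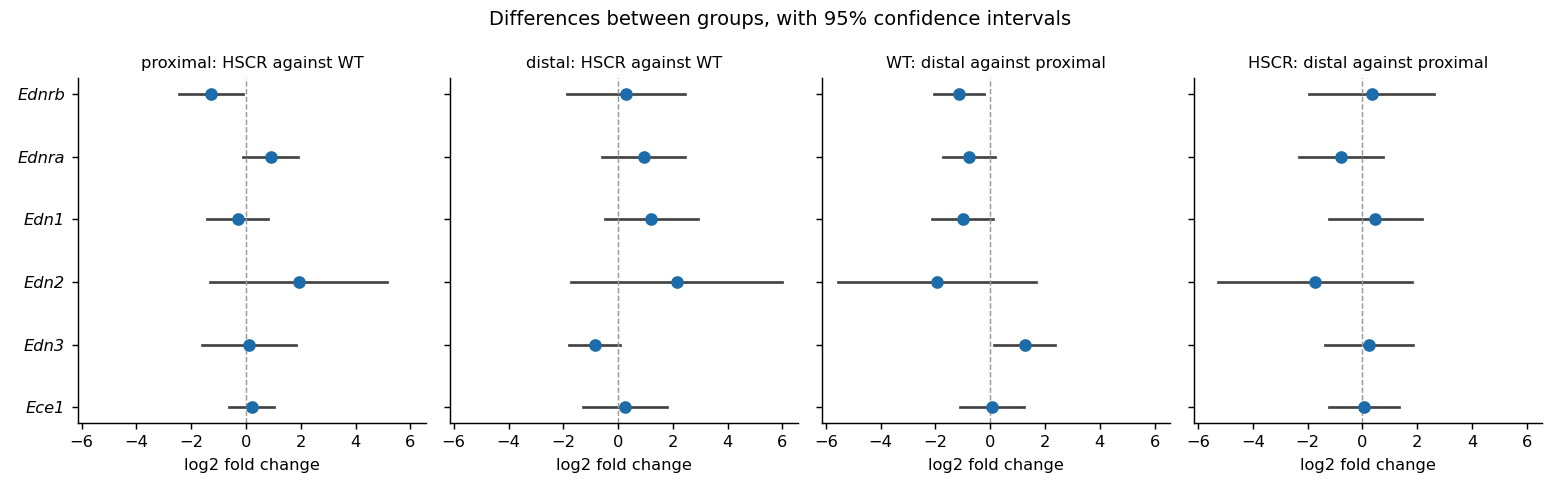
Log2 fold change (horizontal axis) with its 95% confidence interval for 6 of the genes in the 4 pairwise comparisons, from the edgeR quasi-likelihood fits. The intervals of Ednrb in the proximal and the WT comparison and of Edn3 in the WT comparison lie off 0 before adjustment, and all other intervals cross it.

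None of the genes passed an adjusted p of 0.05 in any comparison, and none had groups that did not overlap. The shares of all genes that passed were 0% in both HSCR to WT comparisons, 0.0181% between WT segments, 0% between HSCR segments and 0% for the difference between segments. Groups did not overlap for 4.76%, 1.83%, 4.29% and 1.28% of genes in the 4 pairwise comparisons. Counts at an unadjusted p under 0.05 were 1103, 450, 867, 254 and 269 genes in the same order (1.49% between HSCR segments and 1.44% for the difference), and DESeq2 called 190, 22, 48, 5 and 6 genes, with no endothelin gene among them. The biological coefficient of variation was 0.70 to 0.79.

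Ratios of 2 genes within a library do not depend on its depth or scaling, so 10 ratios among 5 of the genes were compared in 4 comparisons, a choice made after the levels were seen. Of these 40, 5 had groups that did not overlap, each with the smallest exact p of 0.0286 and an adjusted p of 0.229 over the 40. The balance of the receptors was one of them. Counts per length of Ednrb relative to Ednra were 5.52, 2.60, 2.49 and 3.71 in WT proximal and 0.171, 1.06, 1.00 and 1.17 in HSCR proximal libraries.

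Every WT proximal library thus held at least 2.49 times as much Ednrb as Ednra, while HSCR proximal libraries held similar amounts or less. The mean log2 ratios were 1.76 ± 0.53 and -0.56 ± 1.33 (SD, n = 4 each), a difference of -2.32 or 4.99-fold, which ranged from -2.58 to -1.66 when each library was left out. Of 16663 genes set against Ednra in the same way, 11.3% did not overlap, and 11.3% did so in the lower direction, so the receptor ratio was 1 of many. In the distal colon the ratio was 2.42, 2.04, 3.26 and 2.47 in WT and 2.66, 1.93, 0.368 and 0.522 in HSCR libraries, and the groups overlapped, as for all but 1.47% of genes there (difference -1.33, exact permutation p = 0.171). HSCR distal library 1, whose Hox sum lay below the WT distal range, was above WT proximal libraries 2 and 3 (2.60 and 2.49). HSCR proximal library 1, at 0.171, had a Hox sum inside the WT distal range. The proximal separation thus rests on the labels of these libraries.

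The balance of the ligands differed between the WT segments. Edn3 relative to Edn1 was 1.54, 1.21, 0.769 and 0.406 in WT proximal and 6.92, 7.57, 3.39 and 2.41 in WT distal libraries. No library overlapped, and the difference of the mean log2 ratios was 2.38 or 5.20-fold (2.01 to 2.68 with each library left out). Of 16565 genes set against Edn1, 9.56% did not overlap. HSCR libraries had 6.33, 0.125, 1.63 and 0.512 in the proximal and 5.66, 3.00, 0.695 and 0.457 in the distal colon, with overlap, as for all but 0.222% of genes (difference 0.75, exact permutation p = 0.629). That difference was 1.69 without HSCR proximal library 1 and 0.12 without HSCR distal library 1.

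The other 3 ratios had Ece1 as the denominator. Ednrb to Ece1 was lower in HSCR than in WT proximal libraries by -1.68 on the log2 scale, and within WT mice it was lower in the distal segment by -1.04. Ednra to Ece1 was higher in HSCR than in WT mice in the proximal colon, by 0.64. These proximal values rest on the label of HSCR proximal library 1 too. Against Ece1, 4.6% of genes did not overlap in the proximal and 1.89% in the WT segment comparison.

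**Figure D3:**
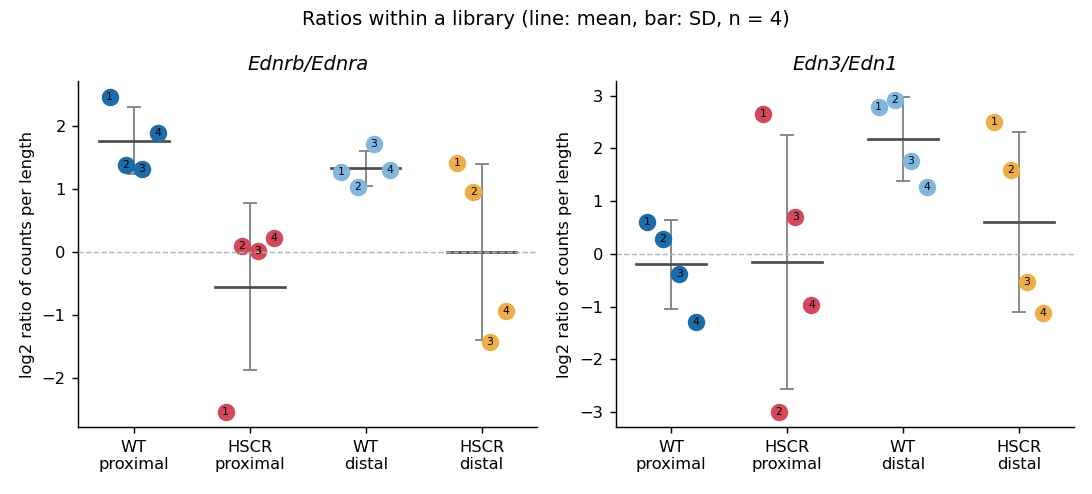
Log2 ratio of counts per length (vertical axis) of Ednrb to Ednra, left, and of Edn3 to Edn1, right, with 1 numbered point per library, the mean and the SD of 4. WT and HSCR proximal libraries are apart on the left, at 1.32 and above against 0.22 and below, and the WT segments are apart on the right.

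Since the tissue holds many cell types, each gene except Ece2 was set against 11 marker lists over the 16 libraries (66 relations, log2 CPM against the mean log2 CPM of the list). In bulk tissue, fewer cells of a type and less RNA per cell cannot be told apart. Of the 66, 11 had a Benjamini-Hochberg adjusted permutation p under 0.05 for Pearson's r, and 9 of those also for Spearman's rho.

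Ednrb went with enteric neurons (r = 0.853, adjusted p = 0.0033; rho = 0.779, adjusted p = 0.0120). Without the 2 libraries farthest from the median r was 0.846. After each group's mean was subtracted r was 0.814, and it was 0.778 within WT and 0.842 within HSCR libraries. Within each of 2 series drawn from the library names r was 0.876 and 0.923 (8 libraries each). The first series held replicates 1 and 2 of every group. The second held replicates 3 and 4, whose names are of 2 kinds that divide largely by segment. The relation was weaker on either side of a list value of 4, a split chosen after the values were seen. In the 9 libraries with a neuron list at 4.66 to 7.72, Ednrb was 29.5 to 94.7 CPM and r was -0.23, and in the 7 with a list at 3.73 or below, Ednrb was 5.43 to 15.7 CPM and r was 0.52. Both sides held WT and HSCR libraries. With enteric glia, r was 0.691 (adjusted p = 0.0242) and rho 0.591 (adjusted p = 0.0915).

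Edn3 went with fibroblasts (r = 0.841, adjusted p = 0.0033; rho = 0.682, adjusted p = 0.0359). HSCR proximal library 2 had the lowest value of both, and r was 0.60 without the 2 libraries farthest from the median, which include it. Within the 2 series r was 0.904 and 0.782, and it was 0.889 over the 8 proximal but 0.354 over the 8 distal libraries. For Edn3 and enteric neurons r was -0.03 (adjusted p = 0.924).

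Ece1 went with 6 lists, most closely with blood endothelium (r = 0.813, adjusted p = 0.0038; rho = 0.815, adjusted p = 0.0120). Within the 2 series r was 0.733 and 0.691, and it was 0.788 without the 2 farthest libraries. The other lists were mesothelium (r = 0.802), pericytes (0.786), lymphatic endothelium (0.772), interstitial cells of Cajal (0.702) and smooth muscle (0.626), and some of these were lower within the series. For smooth muscle r was 0.321 and 0.187 within the 2 series, and for pericytes 0.750 and 0.488. For mesothelium it was 0.728 and -0.03, and rho missed the threshold (adjusted p = 0.0599). Ednra went with mesothelium (r = 0.744, adjusted p = 0.0082) and pericytes (r = 0.720, adjusted p = 0.0131), and within the second series these were 0.375 and 0.471. With smooth muscle Ednra did not pass (r = 0.380, adjusted p = 0.376). Edn1 and Edn2 passed with no list. Their highest values were Edn1 with blood endothelium (r = 0.527, adjusted p = 0.148) and Edn2 with epithelium (r = 0.437, adjusted p = 0.273).

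**Figure D4:**
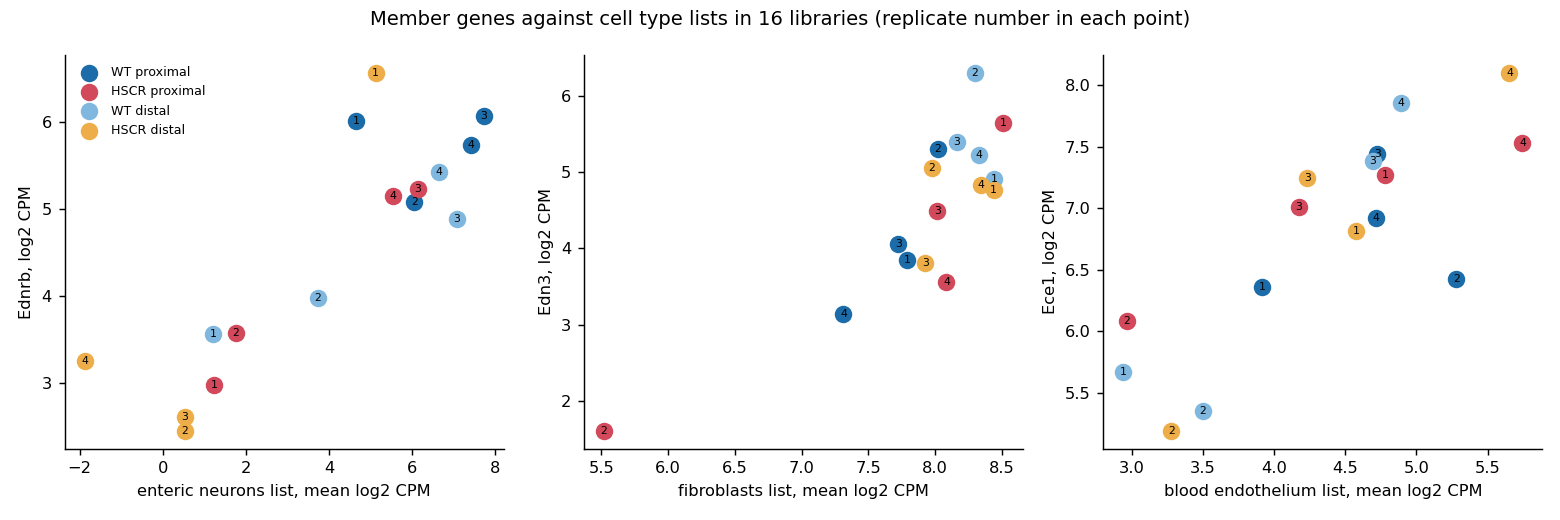
Log2 CPM of Ednrb, Edn3 and Ece1 (vertical axes) against the mean log2 CPM of enteric neuron, fibroblast and blood endothelium markers (horizontal axes), 1 point per library, coloured by group and numbered by replicate. Ednrb is at 5.43 to 15.7 CPM in the 7 libraries with a neuron list at 3.73 or below, and HSCR proximal library 2 sits alone at the low end for Edn3.

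**Figure D5:**
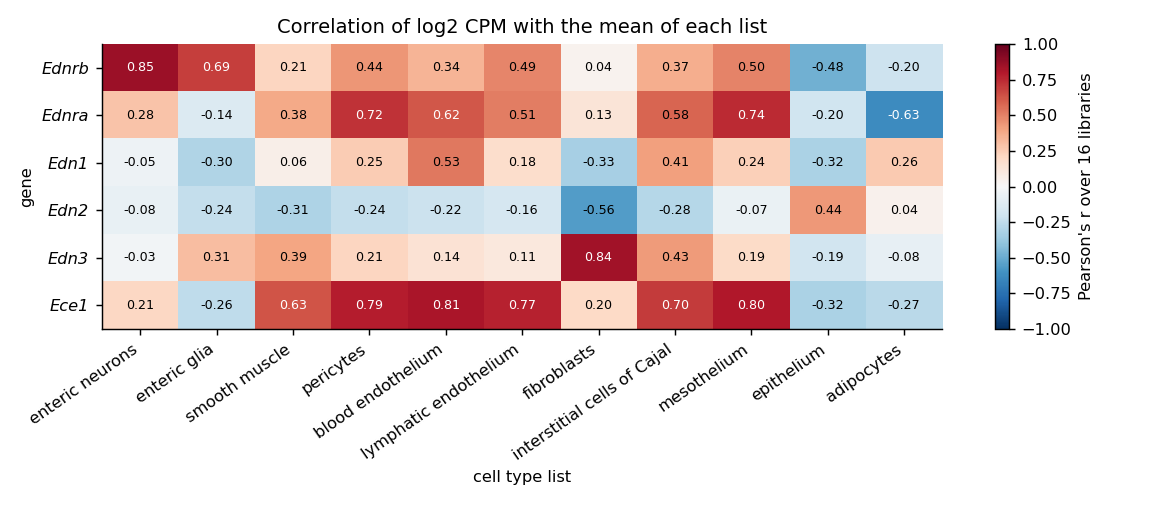
Pearson's r over 16 libraries between log2 CPM of 6 genes (rows) and 11 cell type lists (columns), from blue at -1 to red at 1. Ednrb has its highest value with enteric neurons (0.85), Edn3 with fibroblasts (0.84) and Ece1 with blood endothelium (0.81).

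The genes most like each endothelin gene were ranked by r of log2 CPM over the 16 libraries among 11527 protein-coding genes, as a description. For Ednrb they were Nsg2 (0.937) and Scg3 (0.931), proteins of neuronal vesicles, then Gpr37l1 (0.907), a receptor of glia, Lrrn2 (0.899) and Crtac1 (0.898). For Ece1 they included Cers2 (0.961), Il4ra, Atp2a2 and Aph1b, and for Edn3 they were Ccdc8 (0.919), Dmtf1, Cic, Zbtb5 and Zmym4. Ednra was closest to Ppm1l (0.901), Edn1 to Slc35d1 (0.863) and Edn2 to Crot (0.850), an enzyme of peroxisomal fatty acid transfer. For Ece2 the closest were Igsf21 (0.774) and Gfra1 (0.766), the co-receptor of the neurotrophic factor Gdnf, both at few Ece2 counts. Among the endothelin genes themselves, Ednra and Ece1 were closest (r = 0.712, rho = 0.659).

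Further genes of the pathway were read from 3 lists, and none of their members passed an adjusted p of 0.05 in any comparison. The first held 32 genes that couple the receptors to the cell, such as G proteins, phospholipases C and kinases. Of these, 13 were higher and 19 lower in HSCR than in WT proximal colon (median log2 difference -0.07, against 0.04 over all genes), and 11 higher and 21 lower in the distal colon (median -0.19, against 0.04). Between WT segments 25 were higher and 7 lower in the distal colon (median 0.26, against 0.03), and 5 of the higher and 2 of the lower ones had an unadjusted p under 0.05, where 5.23% of all genes did. The lowest p values there were for Rgs2, a brake on Gq signalling, at -1.34 (SE 0.27, unadjusted p = 0.00067, adjusted p = 0.788, edgeR quasi-likelihood test) and the phospholipase Plcb4 at 1.36 (SE 0.33, unadjusted p = 0.00236, adjusted p = 0.893). Between HSCR segments 21 were higher and 11 lower (median 0.12, against -0.04).

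The second list held 13 other genes of Hirschsprung disease and the neural crest. In the proximal colon 4 were higher and 9 lower in HSCR mice (median -1.04), 5 of the 9 at an unadjusted p under 0.05, where 4.13% of all genes were lower at that p. Zeb2, a transcription factor of neural crest cells, had the lowest p, at -1.69 (SE 0.34, unadjusted p = 0.000808, adjusted p = 0.525, edgeR quasi-likelihood test). In the distal colon 5 were higher and 8 lower (median -1.05), with Gfra1 at -2.56 (SE 1.02, unadjusted p = 0.0339). Enteric neuron markers moved with this list, at a median of -2.11 (proximal) and -2.24 (distal), and enteric glia markers at -1.37 and -0.69, and their part in it was not tested. Between segments the list's median was -0.18 in WT and -0.01 in HSCR mice.

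The third list held 9 peptidases that make or break down endothelins or belong to the M13 family of the converting enzymes, of which 4 to 7 passed the low-count filter. The protease Ctsa, which breaks down endothelin 1, was the only one with an unadjusted p under 0.05, 1 of 4 tested in the proximal comparison where 6.62% of all genes had one, at 0.65 in HSCR against WT mice (SE 0.27, unadjusted p = 0.0388, adjusted p = 0.747, edgeR quasi-likelihood test). Its distal difference was 0.42 (SE 0.36, adjusted p = 1.00).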

How the data were processed

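RNA of the LMMP of 16 libraries was sequenced after poly-A selection. The authors deposited raw counts per gene, together with FPKM, after alignment with HISAT2 2.2.1 to mm39 and counting with featureCounts 2.0.6 against GENCODE, per the labels and the study's methods. FPKM was checked to be the count per gene length with 1 constant per library. The labels do not say whether libraries were stranded, whether replicates are separate mice and whether proximal and distal libraries share mice, so p-values measure the spread between these libraries. Groups follow the sample titles. The tissue entries of the distal libraries name the proximal colon. The deposited fold changes and p-values of the authors' own comparisons were not used.

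Counts were tested with edgeR 4.0.16 (filterByExpr, TMM, quasi-likelihood F-test, Benjamini-Hochberg over all genes tested, threshold 0.05), separately for each pair of groups, with all 16 libraries for the difference of the genotype effect. Of 56748 genes, 23907 had no count. Log2 CPM used a prior count of 0.5. Single values were tested with two-sided exact permutation tests, and correlations with 100000 permutations. The latter exchanged libraries across all 4 groups, so differences between groups enter the p-values of the correlations. Code was tested on simulated data. Alternatives were DESeq2 1.42.0, RUVr with 4 factors, upper quartile scaling, no filter, no mitochondrial genes, a library series term, a replicate block, all groups in 1 fit and leaving out each library. The 2 series were read from the library names, with replicates 1 and 2 in one and 3 and 4 in the other. The second joins names of 2 kinds, which divide largely by segment. WT proximal libraries 3 and 4 and HSCR proximal library 4 have 1 kind, and its other libraries have the other. Values within the second series and the series term do not hold the kinds apart. Same-numbered libraries did not deviate together throughout, with correlations of -0.24 to 0.45 between genotypes and 0.01 to 0.47 between segments. No pairing was used in the main fits. Names share a number across groups for replicates 1 and 2 but not for 3 and 4, which were matched by replicate number alone. All values between segments were positive, so the check does not settle whether segments are paired.

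All 7 endothelin genes were named. From each pathway list the gene with the smallest p in each direction could be named, and for each member the 5 most alike genes of at least 5 CPM, of which 1 is not reported here. Members and lists were chosen with earlier results of these data known. Low counts limit the precision for Ece2.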

Additional observations from a re-analysis of the deposited data

Results flagged for a closer look

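Among 28 sets of 4 libraries (7 genes in 4 groups), 5 held a library far from the other 3, past the critical value of Dixon's test for 4 samples. Chance flags about 1 in 20 such groups where values are normally distributed. CPM on a linear scale is skewed, most of all near 0 as for Edn2 and Ece2, so that rate may be too low here. All 5 flagged values were the highest of their group. Ednrb stood at 94.7 CPM in HSCR distal library 1, against 5.43 to 9.48 CPM in the others. Ece2 stood at 0.419 CPM (15 counts) in the same library, against 0 in the others, where any count above 0 would have been picked out. Edn2 stood at 2.94 CPM in WT proximal library 1, at 9.92 CPM in HSCR proximal library 2 and at 4.15 CPM in HSCR distal library 3, the library with the most epithelial markers of its group in each case. What sets these libraries apart was not tested.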

How the results depend on the processing

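The number of genes called moved most under RUVr, which changed the correction and the test together. Its 4 factors were drawn from the residuals of the libraries compared, which leaves few degrees of freedom in the pairwise fits. Its calls are therefore not comparable with those of the main fits. DESeq2 called 190, 22, 48, 5 and 6 genes (proximal, distal, WT segments, HSCR segments and the difference between segments) and RUVr with 4 factors 3496, 1622, 3269, 344 and 290, against 0, 0, 3, 0 and 0. A series term gave 4 in the proximal comparison, and between WT segments a fit of all 16 libraries gave 0, the replicate block 1 and leaving out a library 0 to 2. RUVr called 3 endothelin genes in the proximal comparison (Ednrb -1.52, Ednra 0.82, Edn2 3.10), 1 in the distal one (Edn3 -0.83), 4 between WT segments (Ednrb -1.27, Ednra -0.82, Edn1 -0.92, Edn3 1.40) and 1 between HSCR segments (Ednra -0.99). All other settings called 0 endothelin genes. The cause was not tested.

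Directions turned as follows. With RUVr, proximal Edn3 was -0.13, distal Ednrb -0.76, Ece1 -0.17 between WT segments, and Ednrb -0.42 and Ece1 -0.12 between HSCR segments. With the replicate block, proximal Edn3 was -0.035, distal Ednrb -1.09, WT segment Ece1 -0.21, and HSCR segment Ednrb -0.95 and Ece1 -0.15. The block changed no other direction. With the series term, distal Ednrb was -0.16, and Ece1 -0.20 between WT and -0.079 between HSCR segments. Leaving out 1 library gave -0.70 to 0.69 for proximal Edn3, -0.011 to 0.45 for proximal Ece1, -1.83 to 0.63 for distal Ednrb, -0.86 to 2.56 for distal Edn2, -0.30 to 0.71 for distal Ece1 and -0.41 to 0.33 for Ece1 between WT segments. Between HSCR segments it gave -1.76 to 0.69 for Ednrb, -0.59 to 0.82 for Edn1, -0.12 to 1.05 for Edn3 and -0.47 to 0.41 for Ece1, and -0.60 to 1.87 for the Ednrb difference between segments. Without both HSCR libraries numbered 1, Ednrb was -2.05 between HSCR segments and -0.89 for the difference between segments. Proximal Ednrb (-1.56 to -0.96) and WT segment Ednrb (-1.51 to -0.93) and Edn3 (0.86 to 1.81) kept their direction in every leave-one-out fit. Other differences did so too, such as proximal Ednra (0.67 to 1.22) and distal Edn3 (-1.04 to -0.49). Few counts limit Ece2, and the spread between libraries limits the other genes, with Edn2 resting on single libraries.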
